A study of Mus musculus with 9 samples.

Results

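The autophagy machinery and its receptors were followed in BV2 cells, an immortalized mouse microglial line, after exposure to silica-coated magnetic nanoparticles. The set was defined by name as 39 genes that act from the start of autophagy to fusion with the lysosome. Of these genes, 38 had a row among the 40993 genes of the expression table. Map1lc3b, the LC3 gene most often used as an autophagy marker, was not analysed here. RNA was sequenced from 9 libraries, 3 from each of 3 groups. Control cells were not treated. The other groups received MNPs@SiO2(RITC), particles with a cobalt ferrite core and a silica shell that carries the dye rhodamine B isothiocyanate, at 10 µg/ml or 100 µg/ml for 12 h. All groups are the same line with no genetic change named, and BV2 is a cultured line rather than microglia taken from tissue. No source states that the 3 libraries of a group came from separate cultures, so p-values measure only the spread between these libraries, which may be technical.

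Autophagy encloses cytoplasmic material in a double membrane and delivers it to the lysosome. The ULK1 kinase complex starts the process, a class III phosphatidylinositol 3-kinase complex marks the site, and lipid transfer proteins enlarge the membrane. A pair of ubiquitin-like conjugation reactions then attaches LC3 and GABARAP proteins to the membrane, where receptors bind them and bring in cargo. SNARE proteins and tethers finally join the closed vesicle to the lysosome. In phagocytes such as microglia, part of this machinery also conjugates LC3 to phagosomes. Transcript levels do not measure how much material passes through the pathway, which was not measured here.

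Values are FPKM, numbers of fragments divided by transcript length and by the size of the library, so levels of different genes can be set side by side. FPKM sums were between 473547 and 522812 per library, and steps between low values placed the depth at about 13300000 to 16020000 fragments, an approximate range. Microglial markers were present, with Cd68 at a mean of 421 FPKM and Csf1r at 142 FPKM in control cells, whereas the neuronal genes Rbfox3, Snap25 and Syt1 and the astrocyte gene Aqp4 were listed at 0 in all libraries. Every microglial marker looked at had a lower mean at 100 µg/ml than in control cells. The gap was small in Cd68, at 413 against 421 FPKM, and in Spi1, at 134 against 136 FPKM. Csf1r was at 123 against 142 FPKM, Adgre1 at 127 against 202 FPKM and Aif1 at 3.87 against 6.54 FPKM. The part of these differences in the results was not tested. In bulk samples, fewer cells of a kind and less RNA per cell cannot be told apart. The first library at 100 µg/ml stood apart: across 11161 genes its deviation correlated at r = -0.34 with log2 transcript length, against -0.118 to 0.172 in the other 8 libraries. Over the members, this correlation was -0.52 in that library and between -0.39 and 0.54 in the others. Differences at 100 µg/ml against control are given with this library, and also without it beside each role.

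In control cells the members spanned a wide range of levels. Sqstm1, which encodes the ubiquitin-binding receptor p62, had the highest level, at 186 ± 17.1 FPKM (SD, n = 3), above 96.3% of the genes tested. Tax1bp1, another receptor of ubiquitinated cargo, had 118.5 ± 10.8 FPKM, and Becn1, the scaffold of the class III kinase complex, had 99.2 ± 6.65 FPKM. Gabarap followed at 64.2 ± 3.83 FPKM and Atg13 at 45.2 ± 2.17 FPKM. The libraries of Tax1bp1 and Becn1 overlapped by a narrow margin, from 106.5 to 127 FPKM and from 93.7 to 107 FPKM. Toward the other end were the kinases Ulk1, at 3.67 ± 0.237 FPKM, and Ulk2, at 3.40 ± 0.474 FPKM, and Map1lc3a, an LC3 protein, at 3.41 ± 1.34 FPKM. These 3 genes overlapped among the control libraries.

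Genes were tested where the mean over all libraries was at least 1 FPKM, which left 36 members. The median of their control means was 18.4 FPKM, against 17.3 FPKM over all genes tested. Wipi1, which binds phosphatidylinositol 3-phosphate on the growing membrane, was under this limit, at 0.709, 0.712 and 0.840 FPKM in control cells, 0.542, 0.704 and 0.627 FPKM at 10 µg/ml and 0.389, 0.456 and 0.612 FPKM at 100 µg/ml. Its libraries at either dose lay under all control libraries, but they rest on an estimated 10 to 22 fragments each and were not tested. Optn, which encodes the receptor optineurin, was listed at 0 in all 9 libraries. A 0 in such a table can also be a failed estimate, so no level is given for Optn.

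**Figure D1:**
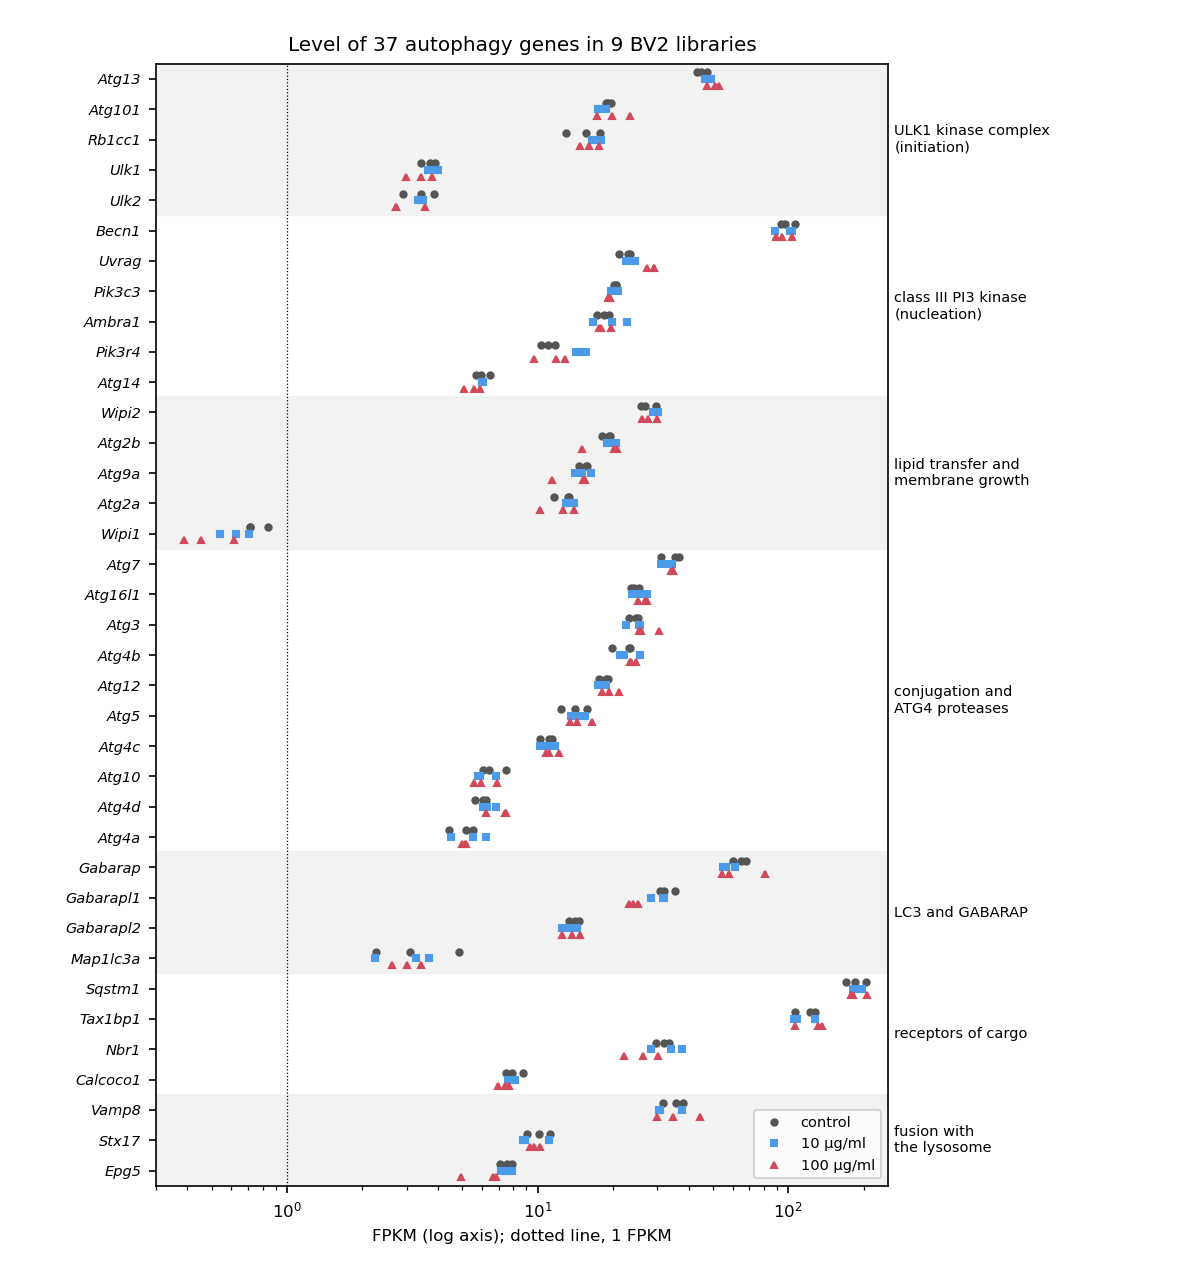
Level of 37 members in each library, as FPKM on a log axis, grouped by role and ordered by the control mean. Each point is 1 library (circles, control; squares, 10 µg/ml; triangles, 100 µg/ml), and the dotted line is the limit of 1 FPKM. Sqstm1 is the highest and Wipi1 the lowest, and at 100 µg/ml the triangles of Gabarapl1 lie left of its control circles and those of Uvrag right of them.

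At 100 µg/ml against control, 2 members passed the test, and they moved in opposite directions. Gabarapl1, a GABARAP protein that is joined to lipid on the autophagosome membrane, fell. Uvrag, a subunit that replaces ATG14 in one form of the class III kinase complex and acts in endosomal traffic and vesicle maturation, rose. The 2 calls are 5.56% of the 36 members tested, and 2.11% of all genes tested passed (236 of 11161 genes, with 0.708% higher and 1.41% lower). The median log2 change of the members was 0.009, with 19 above 0 and 17 below 0, and that of all genes was -0.002. Members were chosen with earlier results of these data known, so these shares and medians are not a test of the set.

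Gabarapl1 (ENSMUSG00000030161, GRCm38, chromosome 6 from 129533200 to 129542331, forward strand) was at 35.4, 31.9 and 30.9 FPKM in control cells. Its level was 31.8, 28.4 and 31.5 FPKM at 10 µg/ml and 25.2, 23.1 and 24.0 FPKM at 100 µg/ml. All libraries at 100 µg/ml were under all of the other libraries, while the control and 10 µg/ml libraries overlapped. On the log2(FPKM + 1) scale, Gabarapl1 fell by 0.42 at 100 µg/ml (SE 0.07, 95% interval -0.59 to -0.26, limma adjusted p = 0.0209). Without the first library at 100 µg/ml the change was -0.46 (limma adjusted p = 0.0208).

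Uvrag (ENSMUSG00000035354, GRCm38, chromosome 7 from 98886743 to 99141144, reverse strand) was at 21.1, 22.9 and 23.3 FPKM in control cells, 24.4, 22.4 and 23.9 FPKM at 10 µg/ml and 27.3, 29.0 and 29.2 FPKM at 100 µg/ml. Again the 3 libraries at 100 µg/ml stood clear of the other 6, here above them. The log2 change at 100 µg/ml was 0.33 (SE 0.06, 95% interval 0.20 to 0.47, limma adjusted p = 0.0285), and without the first library at 100 µg/ml it was 0.36 (limma adjusted p = 0.0207). An estimated 589 to 918 fragments per library stood behind Uvrag and 294 to 469 behind Gabarapl1.

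Both calls sit near the threshold. Gabarapl1 lost its call without control replicate 1, control replicate 2, or replicate 2 or 3 at 100 µg/ml (limma adjusted p between 0.0651 and 0.0904), and Uvrag lost it without any of these, control replicate 3, or replicate 1 or 3 at 10 µg/ml (limma adjusted p between 0.0530 and 0.109). In a fit of only the 6 libraries compared, limma gave an adjusted p of 0.0801 for Gabarapl1 and 0.0990 for Uvrag.

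The sequences before the start sites of the 2 called genes are shown because both moved at the same dose in opposite directions. They are the 250 bases before the RefSeq start (GRCm38.p6), 5′ to 3′ on the strand of the gene, from chr6:129532942-129533191 for Gabarapl1 and chr7:99141145-99141394 for Uvrag. These 2 motifs were searched for after the sequences were seen. The capitals mark every match to GGGCGG, the GC box bound by SP1, and to CCAAT, the box bound by NF-Y, on either strand.
Gabarapl1: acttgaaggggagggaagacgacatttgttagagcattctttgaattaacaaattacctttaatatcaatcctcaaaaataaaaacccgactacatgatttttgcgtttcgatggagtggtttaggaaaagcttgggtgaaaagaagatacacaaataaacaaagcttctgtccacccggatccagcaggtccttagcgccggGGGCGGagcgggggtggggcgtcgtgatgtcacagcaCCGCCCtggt
Uvrag: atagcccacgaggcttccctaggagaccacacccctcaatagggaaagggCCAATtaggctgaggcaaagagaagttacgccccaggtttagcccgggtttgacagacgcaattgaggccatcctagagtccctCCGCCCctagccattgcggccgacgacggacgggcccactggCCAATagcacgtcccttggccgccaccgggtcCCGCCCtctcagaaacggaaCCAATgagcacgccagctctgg
Gabarapl1 has 2 GC boxes, which begin 47 and 10 bases before the start, and no CCAAT. Uvrag has 3 CCAAT boxes, which begin 200, 74 and 22 bases before the start, and 2 GC boxes. Windows within 1000 bases of the deposited start were found for 29 members. Of these, 18 (62.1%) held a GC box, against 32.7% of 32851 windows of all genes. The windows of all genes were not limited to expressed genes or matched for GC content. Whether the members' shares of this and the other motifs differ from those of other expressed genes was not tested. CCAAT was in 7 of the 29 (24.1%, against 33.8% of all windows). CACGTG, the E-box core of the element bound by TFEB, was in 2 (6.90%, against 6.02%), TGACNNNGC, the core of the antioxidant response element, was in 2 (6.90%, against 10.2%), and TGTTTAC, a forkhead box O motif, was in 0 (against 3.17%). None of these last 3 was in the windows of Gabarapl1 and Uvrag. The motifs do not overlap one another in the windows shown.

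Among the initiation genes, no member passed the test in any comparison. Atg13, the regulatory subunit that links ULK1 to its partners, had the largest log2 difference of its group at 100 µg/ml. It was at 44.7, 43.3 and 47.5 FPKM in control cells, 49.1, 46.6 and 48.8 FPKM at 10 µg/ml and 50.8, 47.3 and 53.1 FPKM at 100 µg/ml. The libraries at 100 µg/ml were mostly higher but overlapped with control, and the difference of 0.15 (95% interval 0.02 to 0.29) had a limma adjusted p of 0.203. The log2 differences of the 5 genes ran from -0.14 in Ulk2 to 0.15 in Atg13, with Ulk1 at -0.09, the scaffold Rb1cc1 at 0.07 and Atg101 at 0.06. With the first library at 100 µg/ml left out, Atg13 stayed at 0.15, Ulk2 was at -0.09, Ulk1 at -0.02, Rb1cc1 at 0.13 and Atg101 at -0.04.

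In the class III kinase complex, Uvrag was the member called, and Pik3r4, the regulatory subunit of the lipid kinase, followed another pattern. Pik3r4 was at 11.0, 10.3 and 11.8 FPKM in control cells, 14.2, 14.7 and 15.6 FPKM at 10 µg/ml and 9.64, 12.9 and 11.9 FPKM at 100 µg/ml. The libraries at 10 µg/ml were above all the others, and those at 100 µg/ml overlapped with control. The log2 difference at 10 µg/ml was 0.40 (95% interval 0.17 to 0.62, unadjusted p = 0.00322 and adjusted p = 1.0 with limma), and that at 100 µg/ml against 10 µg/ml was -0.35 (limma adjusted p = 0.166), so neither passed the test over all genes. The latter was -0.24 without the first library at 100 µg/ml, and the difference at 100 µg/ml against control went from 0.05 to 0.16.

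The other 4 genes of the complex had small differences at 100 µg/ml. These were -0.11 for Atg14, which directs the complex to autophagosome formation, -0.08 for the catalytic subunit Pik3c3, -0.05 for Becn1 and 0.003 for Ambra1, a regulator of Becn1. Pik3c3 differed little in size but had tight replicates, at 20.5, 20.2 and 20.6 FPKM in control cells and 19.0, 19.4 and 19.4 FPKM at 100 µg/ml. Its libraries did not overlap between these groups, and the limma adjusted p was 0.399. Without the first library at 100 µg/ml, the difference was -0.07 in Pik3c3, -0.06 in Atg14, -0.001 in Becn1 and 0.03 in Ambra1.

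No gene of lipid transfer and membrane growth passed. Atg9a, the scramblase of the vesicles that seed the membrane, was at 15.7, 14.7 and 15.8 FPKM in control cells, 16.3, 14.1 and 15.1 FPKM at 10 µg/ml and 11.4, 15.5 and 15.1 FPKM at 100 µg/ml. Its low value at 100 µg/ml was in the first library alone. The log2 difference was -0.14 (limma adjusted p = 0.541) with that library and -0.01 without it. The lipid transfer proteins Atg2a and Atg2b went from -0.06 and -0.03 with it to 0.06 and 0.11 without it, and Wipi2 from 0.02 to 0.07. Atg9a overlaps Ankzf1 on the opposite strand (mean 16.2 FPKM), and whether strand was used in the estimates is not given in the sources used here.

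In the conjugation system, 9 of 10 genes were above 0 at 100 µg/ml, with a median log2 difference of 0.067, and none passed. Without the first library at 100 µg/ml, 8 of 10 were above 0. Atg4d, a protease that processes LC3 and GABARAP proteins, differed most. It was at 5.61, 6.06 and 6.24 FPKM in control cells, 6.07, 6.30 and 6.79 FPKM at 10 µg/ml and 7.39, 6.2 and 7.496 FPKM at 100 µg/ml. The second library at 100 µg/ml lay among the controls, and the difference of 0.20 (0.17 without the first library) had a limma adjusted p of 0.246. Atg4d also overlaps Kri1 on the opposite strand (mean 21.8 FPKM), with the same limit as for Atg9a.

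Atg3, the enzyme that transfers LC3 to lipid, and the protease Atg4b did not overlap between 100 µg/ml and control. Their log2 differences were 0.15 (limma adjusted p = 0.350) and 0.11 (limma adjusted p = 0.535). Atg4b overlaps Thap4 on the opposite strand (mean 25.1 FPKM), again with the same limit as for Atg9a. When the first library at 100 µg/ml was left out, Atg3 was at 0.07 and Atg4b at 0.12. The remaining genes of the group, among them Atg7, the activating enzyme, and Atg5, Atg12 and Atg16l1, whose products form the ligase-like complex, were between -0.10 and 0.10, and between -0.08 and 0.14 without that library.

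The 4 LC3 and GABARAP genes analysed were all below 0 at both doses, which share the same control libraries, and Gabarapl1 alone passed. Gabarap was at 67.8, 64.6 and 60.2 FPKM in control cells and 81.0, 57.8 and 54.3 FPKM at 100 µg/ml. Its first library at 100 µg/ml was above, and the other 2 below, all control libraries. The log2 difference was -0.02 (95% interval -0.32 to 0.29, limma adjusted p = 0.959) with all libraries and -0.19 (limma adjusted p = 0.144) without that one. Gabarapl2 was at -0.04 (95% interval -0.22 to 0.13) and Map1lc3a at -0.09 (95% interval -0.59 to 0.40), where an estimated 30 to 59 fragments per library give a wide interval. These were -0.10 and -0.17 without the first library at 100 µg/ml.

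Sqstm1 was at 170, 184.5 and 204 FPKM in control cells, 181, 192 and 196 FPKM at 10 µg/ml and 205, 178 and 181 FPKM at 100 µg/ml. The groups overlapped fully. The log2 difference was 0.01 at 100 µg/ml (95% interval -0.17 to 0.20, limma adjusted p = 0.942) and 0.03 at 10 µg/ml (95% interval -0.16 to 0.21, limma adjusted p = 1.0), so a change of 1.5-fold in either direction lies outside both intervals. The difference at 100 µg/ml was -0.05 without the first library.

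Nbr1, a receptor that works with p62, was at 29.6, 31.8 and 33.5 FPKM in control cells, 37.7, 28.3 and 34.1 FPKM at 10 µg/ml and 22.1, 30.1 and 26.4 FPKM at 100 µg/ml. Its lowest library was the first at 100 µg/ml. The difference at 100 µg/ml was -0.27 (limma adjusted p = 0.284), and -0.16 without that library. The other receptors, Tax1bp1 and Calcoco1, were at 0.07 and -0.11, and at 0.18 and -0.12 without it.

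Among the fusion genes, Epg5, a tether that joins autophagosomes to late endosomes and lysosomes, had the largest difference. It was at 7.06, 7.52 and 7.93 FPKM in control cells, 7.87, 7.41 and 7.15 FPKM at 10 µg/ml and 4.95, 6.82 and 6.62 FPKM at 100 µg/ml. All libraries at 100 µg/ml were under the other 6. The log2 difference of -0.26 had a limma adjusted p of 0.229, and without the lowest library, the first, it was -0.14 (limma adjusted p = 0.280). The SNARE genes Stx17 and Vamp8 were at -0.05 and 0.03, and at -0.04 and -0.12 without it.

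**Figure D2:**
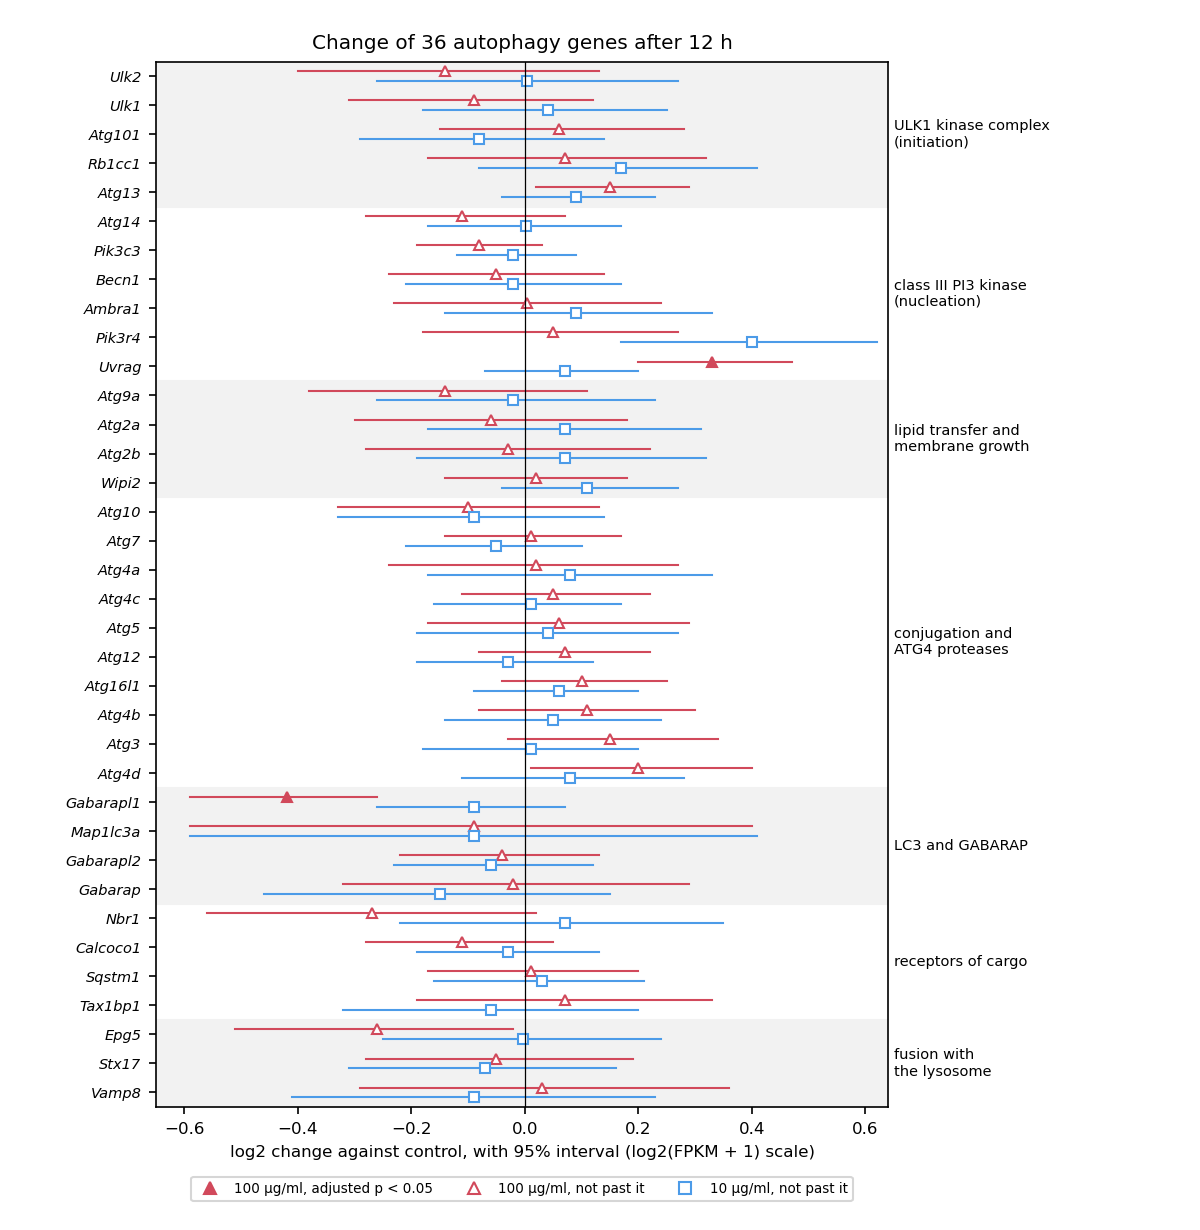
Change of the 36 members tested against control, on the log2(FPKM + 1) scale, at 100 µg/ml (triangles) and 10 µg/ml (squares), with 95% intervals from limma and filled where the adjusted p was under 0.05. Only Gabarapl1 at -0.42 and Uvrag at 0.33 are filled, and the largest difference at 10 µg/ml is Pik3r4 at 0.40.

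Counted over the pathway, 5 members were at an unadjusted p under 0.05 at 100 µg/ml (13.9%, against 19.4% of all genes tested, 9.67% above 0 and 9.69% below): Uvrag, Atg13 and Atg4d above 0 and Gabarapl1 and Epg5 below. Libraries did not overlap between 100 µg/ml and control in 6 members (16.7%, against 23.8% of all genes, 12.5% higher and 11.4% lower). These were Uvrag, Atg3 and Atg4b, which were higher, and Gabarapl1, Pik3c3 and Epg5, which were lower. Of the 34 members not called, 32 had a 95% interval inside a 1.5-fold change of their control mean FPKM in either direction, set on the log2(FPKM + 1) scale for each gene. The exceptions were Map1lc3a and Epg5. No member tested reached the cut-offs of the study in any comparison. These were an unadjusted p under 0.05 with a change of 1.5-fold in mean FPKM. They were reached by 2.4% of all genes tested at 100 µg/ml, 0.672% at 10 µg/ml and 1.63% between the doses. The p-values here are from limma, whereas the study used Cuffdiff. Wipi1, which was not tested, had a mean at 100 µg/ml of 64.4% of its control mean, a fall past 1.5-fold.

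At 10 µg/ml against control, limma called 0 of 36 members and 0 of 11161 genes (0.0%). An unadjusted p under 0.05 was found for 366 genes (3.28%, with 1.74% above 0 and 1.54% below) and for 1 member (2.78%), Pik3r4. Libraries did not overlap in 2 members (5.56%, against 10.7% of all genes, 6.14% higher and 4.61% lower), Pik3r4 higher and Atg101 lower. The median log2 difference of the members was 0.005.

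At 100 µg/ml against 10 µg/ml, no member passed, where 0.851% of all genes did (95 genes, with 0.215% higher and 0.636% lower). Gabarapl1 was at -0.33 (limma adjusted p = 0.0844) and Uvrag at 0.26 (limma adjusted p = 0.0934). Libraries did not overlap in 6 members (16.7%, against 19.4% of all genes, 9.37% higher and 9.99% lower), of which Uvrag was higher and Gabarapl1, Pik3c3, Pik3r4, Atg14 and Epg5 were lower. In this contrast 5 members were at an unadjusted p under 0.05 (13.9%, against 14.3% of all genes), 1 above 0 and 4 below, where 6.49% and 7.8% of all genes were. The comparisons share libraries, so their values are not independent.

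**Figure D3:**
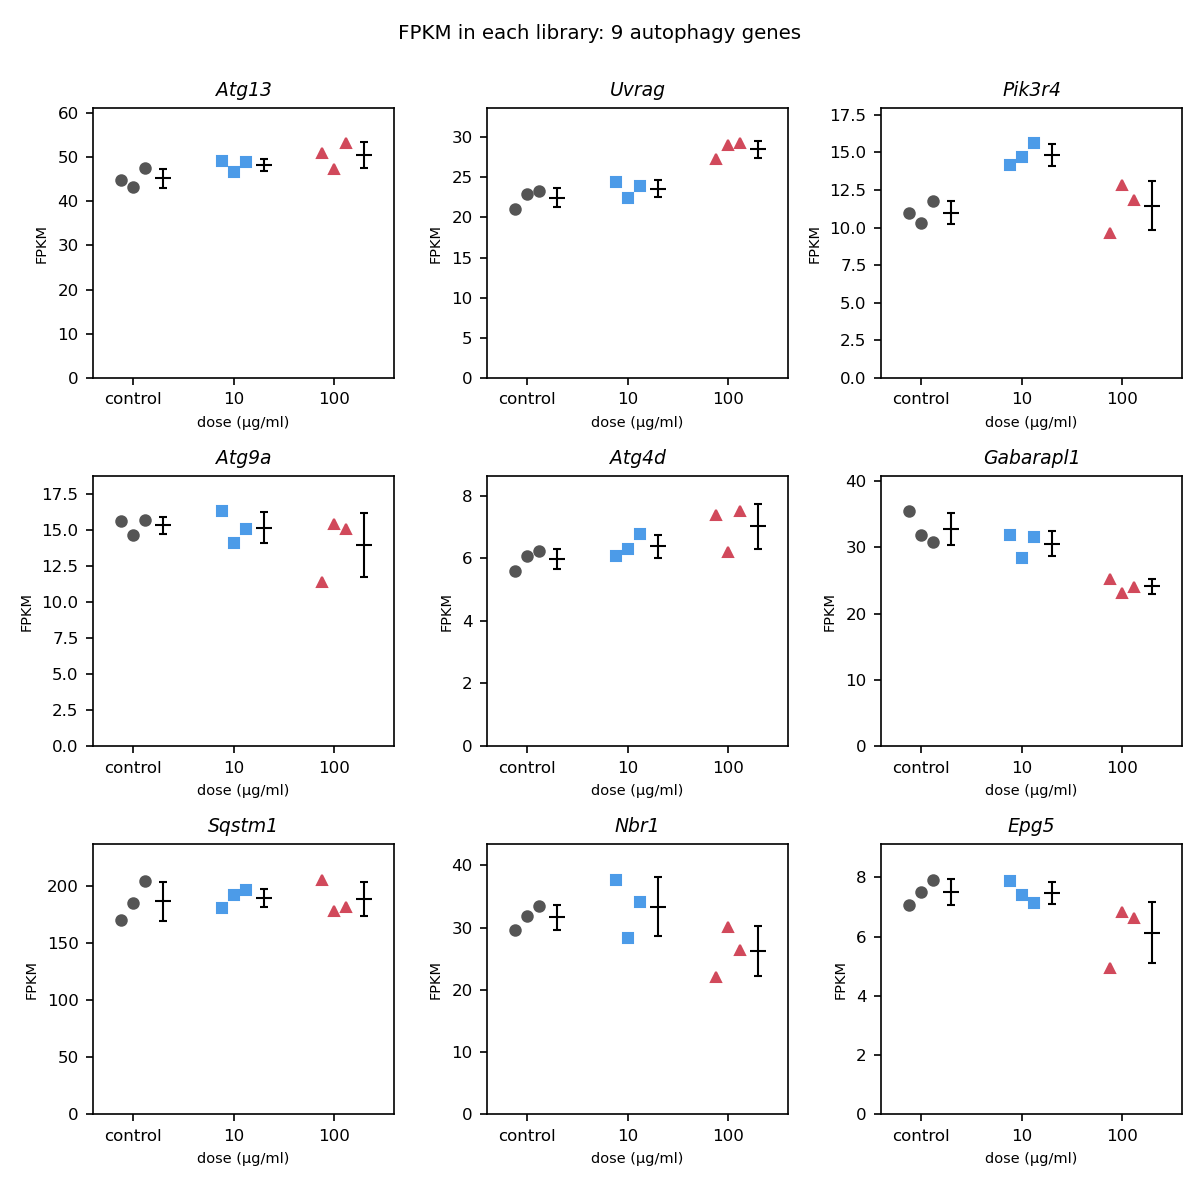
FPKM of 9 members in each library, by dose, with the mean and SD of 3 libraries beside the points and axes from 0. Gabarapl1 and Uvrag separate at 100 µg/ml, Pik3r4 is highest at 10 µg/ml, and Sqstm1 overlaps across doses. In Atg9a, Nbr1 and Epg5 the lowest point is the first library at 100 µg/ml.

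Summed over the 38 genes, the level was nearly flat, at 1017.2 ± 10.9 FPKM in control cells, 1017.7 ± 32.9 FPKM at 10 µg/ml and 1024.6 ± 7.68 FPKM at 100 µg/ml (SD, n = 3 each), and the groups overlapped. By role, the summed conjugation genes were at 166, 171 and 162 FPKM in control cells and 181, 172.5 and 174 FPKM at 100 µg/ml, with all libraries at 100 µg/ml above control. At 10 µg/ml this sum was 163, 167 and 172 FPKM, which overlapped with control. The summed initiation genes were at 84.0, 85.4 and 90.9 FPKM in control cells and 94.7, 90.7 and 94.1 FPKM at 100 µg/ml, which overlapped by a narrow margin. The summed receptors were at 335, 347 and 352 FPKM in control cells and 341, 352 and 346 FPKM at 100 µg/ml, and the fusion genes at 54.1, 53.3 and 50.8 FPKM and 59.0, 46.0 and 51.6 FPKM, both with overlap. The class III kinase genes summed to 171, 176 and 185 FPKM in control cells and 168, 181 and 188 FPKM at 100 µg/ml, and the lipid transfer genes to 72.8, 73.7 and 79.0 FPKM and 63.0, 77.7 and 78.9 FPKM. The LC3 and GABARAP genes summed to 123, 114 and 107 FPKM in control cells and 124, 96.3 and 94.7 FPKM at 100 µg/ml. These 3 sums overlapped too. The conjugation genes were the 1 role of 7 whose sum separated at 100 µg/ml, by a narrow margin (171 against 172.5 FPKM in the nearest libraries). Of all genes tested, 23.8% did not overlap between 100 µg/ml and control, and the sums were not tested. Such sums weigh the most abundant genes most.

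**Figure D4:**
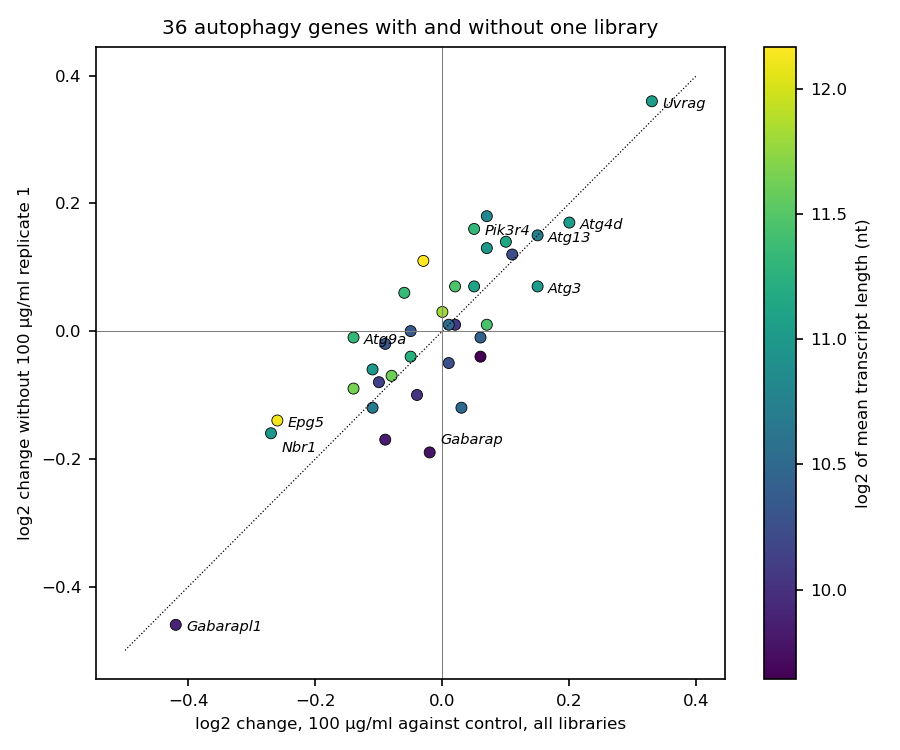
Log2 change at 100 µg/ml against control of the 36 members, with all libraries (x axis) and without the first library at 100 µg/ml (y axis), coloured by log2 of mean transcript length. Gabarapl1 and Uvrag lie near the ends of the dotted line of equal values, at -0.46 and 0.36 without that library, while 6 members near 0 change sign.

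Leaving out that library turned the sign of 6 members, Atg101, Atg2a, Atg2b, Atg5, Sqstm1 and Vamp8, all within 0.12 of 0 on the log2 scale in either fit. It kept both calls, Gabarapl1 and Uvrag, and the median over the members went from 0.009 to -0.003. By role, the median turned sign in 3 groups, from 0.065 to -0.02 in the initiation genes, from -0.024 to 0.015 in the class III kinase complex and from -0.045 to 0.063 in the lipid transfer genes. It went from 0.067 to 0.041 in the conjugation genes, from -0.067 to -0.179 in the LC3 and GABARAP genes, from -0.05 to -0.084 in the receptors and from -0.048 to -0.116 in the fusion genes. In the contrast between the doses, 8 members turned sign without it: Becn1, Atg2b, Atg9a, Atg5, Atg10, Gabarap, Gabarapl2 and Vamp8.

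A list of 64 other genes of the pathway gave 63 rows and 58 genes tested. At 100 µg/ml against control, 3 of the 58 passed (5.17%, against 2.11% of all genes and 1.41% lower), all lower: Ddit4, Sesn1 and Sesn2. The products of all 3 restrain the kinase complex mTORC1, an inhibitor of ULK1, with Ddit4 (also REDD1) acting through the TSC complex and the sestrins through amino acid sensing. The list had 20 genes above 0 and 38 below, with a median of -0.037, against -0.002 over all genes. At 10 µg/ml none passed, and at 100 µg/ml against 10 µg/ml Ddit4 and Sesn2 did, both lower (3.45%, against 0.636% of all genes lower). The list was chosen with earlier results of these data known, so these shares and medians are not a test of it. The paper also lists Ddit4 as lower at 100 µg/ml.

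Ddit4 was at 10.7, 11.2 and 11.3 FPKM in control cells, 13.9, 9.37 and 11.6 FPKM at 10 µg/ml and 6.001, 4.70 and 5.59 FPKM at 100 µg/ml. Sesn2 was at 9.78, 11.9 and 12.2 FPKM in control cells, 12.7, 11.4 and 11.9 FPKM at 10 µg/ml and 6.86, 7.44 and 6.72 FPKM at 100 µg/ml. In both genes the libraries at 100 µg/ml were under all the others, and control and 10 µg/ml overlapped. At 100 µg/ml Ddit4 fell by 0.91 on the log2(FPKM + 1) scale (SE 0.13, limma adjusted p = 0.0132) and Sesn2 fell by 0.62 (SE 0.09, limma adjusted p = 0.0142).

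Sesn1 was at 14.8, 13.7 and 14.8 FPKM in control cells, 12.8, 13.1 and 13.1 FPKM at 10 µg/ml and 11.1, 10.3 and 9.98 FPKM at 100 µg/ml. Here the libraries did not overlap between any pair of groups. Sesn1 fell by 0.43 at 100 µg/ml (SE 0.06, limma adjusted p = 0.0123), and its difference at 10 µg/ml was -0.14 (limma adjusted p = 1.0). Without the first library at 100 µg/ml all 3 genes passed. At 100 µg/ml against control, none of the 3 passed without control replicate 2 or control replicate 3, Ddit4 and Sesn1 did not without control replicate 1, and Sesn1 and Sesn2 did not without replicate 3 at 100 µg/ml (limma adjusted p between 0.0511 and 0.0807). In the contrast between the doses, leaving out 1 library took the call from Ddit4 (10 µg/ml replicate 1 or 3, 100 µg/ml replicate 2 or 3) and from Sesn2 (any 10 µg/ml replicate, 100 µg/ml replicate 3), with limma adjusted p between 0.0618 and 0.0943. In a fit of only the 6 libraries compared, Sesn1 and Sesn2 had a limma adjusted p of 0.0783 each at 100 µg/ml against control, and Ddit4 and Sesn2 had 0.114 and 0.0727 between the doses.

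The kinase gene Mtor was at 23.5, 23.6 and 21.1 FPKM in control cells and 19.1, 24.9 and 23.7 FPKM at 100 µg/ml, with overlap and a log2 difference of -0.01 (95% interval -0.32 to 0.29, limma adjusted p = 0.965). Tfeb, which encodes a transcription factor for autophagy and lysosome genes, was at 5.73, 7.59 and 6.70 FPKM and 5.90, 7.08 and 4.04 FPKM, a difference of -0.22 (95% interval -0.66 to 0.21, limma adjusted p = 0.576). Its relative Tfe3 was at 53.8, 60.4 and 62.2 FPKM and 48.8, 57.3 and 59.6 FPKM, a difference of -0.09 (95% interval -0.32 to 0.14, limma adjusted p = 0.669). All 3 genes overlapped between the groups. Without the first library at 100 µg/ml, Mtor was at 0.09, Tfeb at -0.26 and Tfe3 at -0.01.

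**Figure D5:**
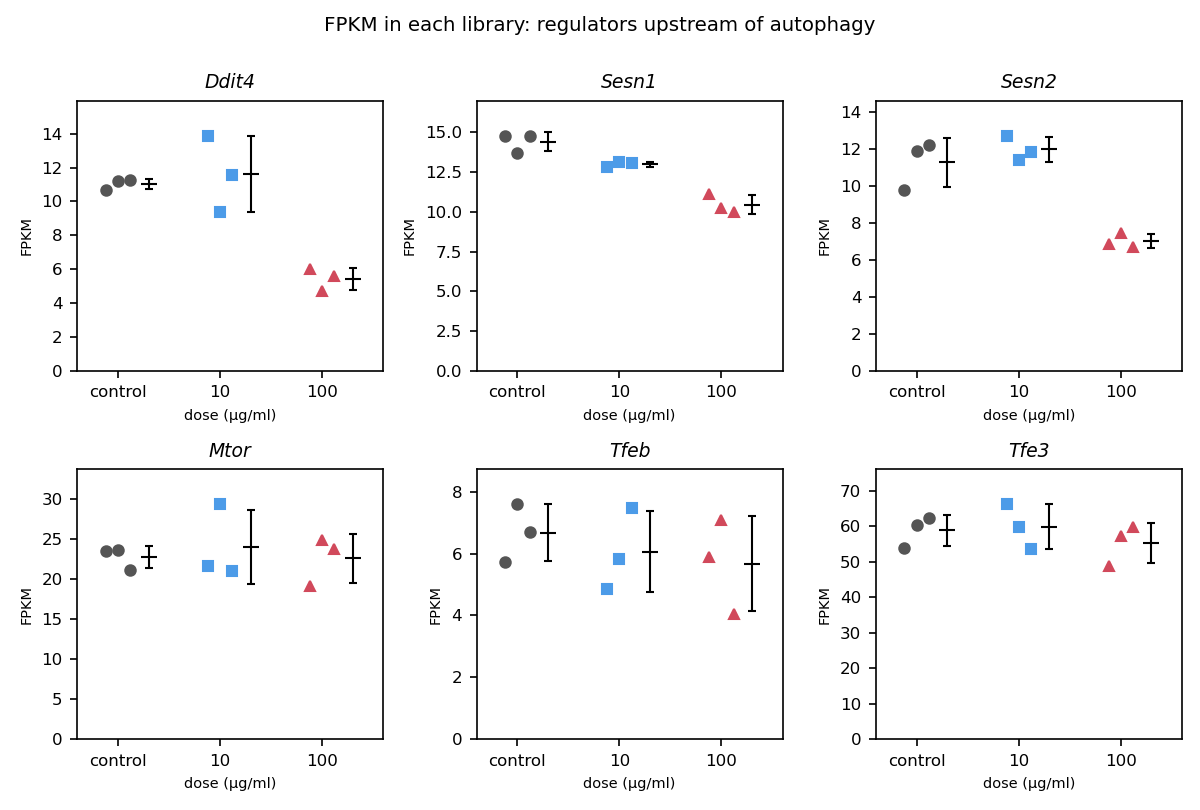
FPKM of 6 regulators upstream of autophagy in each library, by dose, with the mean and SD of 3 libraries beside the points and axes from 0. Ddit4, Sesn1 and Sesn2 are lowest at 100 µg/ml in all 3 libraries, and Mtor, Tfeb and Tfe3 overlap with control.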

How the data were processed

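RNA-seq of 9 BV2 libraries was used. Per the labels and the methods of the study, the authors filtered reads of low quality, aligned the rest with TopHat and estimated FPKM with Cufflinks 2.1.1 on Ensembl genes (GRCm38), correcting for fragment bias and multiply mapped reads. These deposited FPKM are 1 value per gene and library. No counts were used, and values under 1e-10 were set to 0. Genes were joined by identifier, with transcript length and GC content from GENCODE. A single model of all 3 groups was fitted to log2(FPKM + 1) in limma 3.58.1 (R 4.3.3), using the eBayes trend. Genes averaging 1 FPKM or more over the libraries entered (11161), p was adjusted over them by Benjamini-Hochberg, and the threshold was 0.05. On simulated data for 100 µg/ml against control (11161 genes, 200 changed) this procedure called 69.5% of log2 changes of 0.6 and 93% of log2 changes of 1. Changes as small as those of the members were not simulated. The simulated noise was independent for each gene and library, without the length-linked deviation of the first library at 100 µg/ml. The depth, which limits low members, was estimated from FPKM steps (71.6% of 4605 low values within 0.25 of a whole fragment) and is approximate, as are fragment numbers. It was picked for the best agreement with whole fragments on these same values, so that share is not a separate check of the depth.

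Library values are printed for members with an adjusted p under 0.05 in any comparison or an unadjusted p under 0.05 at either dose against control, for Sqstm1, and for the member with the largest change at 100 µg/ml in each role. Of the other pathway genes, those called and Mtor, Tfeb and Tfe3 are printed. Map1lc3b was on the same list and is not analysed here. The library values of Gabarap, Pik3c3 and Wipi1 and the levels set side by side were chosen after their values were seen. The members and lists were chosen with earlier results of these data known. Alternatives were other pseudocounts (0.1, 0.01), no filter or one at 5 FPKM, quantile and median-of-ratios scaling, a replicate block, eBayes without trend, only the libraries compared, each library left out, the cut-offs of the study and, chosen after seeing the data, a correction for GC content and length.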

Additional observations from a re-analysis of the deposited data

How the results depend on the processing

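At 100 µg/ml against control, Gabarapl1 and Uvrag were both called under the other pseudocounts, filters and scalings and without the trend. The replicate block kept Gabarapl1 but not Uvrag (limma adjusted p = 0.0717) and gave 1 member, 3 genes of the pathway list and 106 of all genes; at 100 against 10 µg/ml it gave 1 of the list, without Sesn2 (limma adjusted p = 0.0572), and 13 of all genes. Same-numbered libraries did not deviate together (r from -0.088 to 0.152), so the numbers do not show pairing. A fit of only the 6 libraries compared called 0 members, 1 of the list and 22 genes at 100 µg/ml against control, 1 gene at 10 µg/ml against control, and 0 of the list and 6 genes at 100 against 10 µg/ml. The study's cut-offs (unadjusted p under 0.05, here from limma, and 1.5-fold) gave 0 members tested at 100 µg/ml, 75 genes at 10 µg/ml and 182 genes at 100 against 10 µg/ml. No filter gave 3 genes at 10 µg/ml. The GC and length correction, chosen after seeing the data, gave 5 of the list (adding Fyco1 and Wdfy3) and 545 genes at 100 µg/ml, and 2 members (Gabarapl1 and Uvrag) and 207 genes at 100 against 10 µg/ml. With the block as well, it gave 4 of the list and 278 genes, and 0 members and 97 genes. It turned Tfe3 at 10 µg/ml to -0.02 with and without the block. The cause of these shifts was not tested.

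Leaving out 1 library gave 0 to 2 members, 0 to 4 of the list and 31 to 539 genes at 100 µg/ml, 0 members and 0 to 2 genes at 10 µg/ml, and 0 members, 0 to 3 of the list and 8 to 191 genes at 100 against 10 µg/ml, where 539 and 191 came without the first library at 100 µg/ml, 31 without control replicate 2 and 8 without 10 µg/ml replicate 1. The members' median at 100 µg/ml ranged from -0.021 to 0.009. Of the 15 genes refitted in this way, the sign turned at 100 µg/ml in Mtor (-0.09 to 0.09), Pik3r4 (-0.03 to 0.16) and Sqstm1 (-0.05 to 0.08); at 10 µg/ml in Atg9a (-0.07 to 0.03), Ddit4 (-0.08 to 0.18), Epg5 (-0.04 to 0.03), Mtor (-0.09 to 0.14), Nbr1 (-0.02 to 0.18), Sesn2 (-0.01 to 0.14), Sqstm1 (-0.04 to 0.10) and Tfe3 (-0.05 to 0.10); and at 100 against 10 µg/ml in Atg9a (-0.19 to 0.01), Mtor (-0.16 to 0.07), Sqstm1 (-0.08 to 0.03) and Tfeb (-0.24 to 0.10).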

Other observations

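Ratios between members of one complex or family, chosen after the values were seen, are set out here as values. In the class III kinase complex, Uvrag and Atg14 are alternative partners of Becn1. The ratio of Uvrag to Atg14 was 3.73, 3.55 and 3.93 in control cells, 4.08, 3.70 and 3.97 at 10 µg/ml and 5.37, 5.20 and 4.96 at 100 µg/ml. All libraries at 100 µg/ml were above the other 6, and an exact two-sided permutation test against control gave p = 0.1, the smallest that 3 against 3 libraries allow. Against Becn1 itself, Uvrag was at 0.23, 0.24 and 0.22 in control cells and 0.31, 0.31 and 0.28 at 100 µg/ml (exact permutation p = 0.1).

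Among the GABARAP genes, the ratio of Gabarapl1 to Gabarapl2 was 2.43, 2.26 and 2.30 in control cells, 2.36, 2.28 and 2.20 at 10 µg/ml and 1.71, 1.85 and 1.76 at 100 µg/ml (exact permutation p = 0.1 against control). The ratio of Gabarapl1 to Gabarap was 0.52, 0.49 and 0.51 in control cells and 0.31, 0.40 and 0.44 at 100 µg/ml (exact permutation p = 0.1). The ratio of Pik3r4 to Pik3c3, both subunits of the lipid kinase, was 0.53, 0.51 and 0.57 in control cells, 0.71, 0.70 and 0.79 at 10 µg/ml (exact permutation p = 0.1) and 0.51, 0.66 and 0.61 at 100 µg/ml (exact permutation p = 0.4). These ratios share their numerators with the changes reported above and are not separate evidence of them.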
